A study of Mus musculus with 2 samples.

Results

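The 10 genes described here are markers of alveolar type 1 (AT1) cells and of epithelial cells on the way to that state, chosen by name from the 32285 genes of the deposited tables. *Ager*, *Hopx*, *Rtkn2*, *Clic5*, *Aqp5*, *Pdpn* and *Akap5* are the 7 AT1 members, and *Krt8*, *Krt19* and *Cldn4* are the 3 transitional members. All 10 were found in both libraries. The study asked how the Hedgehog inhibitor HHIP, made by lung stroma, shapes alveoli after birth, and its epithelial question was what happens to alveolar type 2 (AT2) cells when the stroma lacks it. Both mice were Gli1creERT/+:Hhipflox/flox and were taken at P14. The mouse called HHIPCKO here had tamoxifen on each of 3 days from birth to activate the Cre, and the control mouse had oil at the same times. The Cre is driven by *Gli1*, a Hedgehog target of stromal cells, so the epithelium was not the tissue in which deletion was intended. Each group is 1 mouse and 1 library, so no test of a difference was possible, and no value has a replicate error. Live stromal cells, gated as negative for CD326, and CD326-positive epithelial cells were sorted without endothelial and immune cells and loaded at a ratio of 3 to 1. No gate selected AT1 cells.

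As background, AT1 cells are the very flat cells across which gas is exchanged, and AT2 cells are the cuboidal cells that make surfactant and renew both types. AT2 cells that turn into AT1 cells pass through a state with high keratins and tight junction proteins, in which surfactant genes decline before the full set of AT1 genes is on. Several of these genes are also used outside the alveolus, in airway, mesothelial and endothelial cells, so their levels depend on which cells a suspension holds.

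The control library holds 43291709 unique molecular identifiers (UMIs, each a counted RNA molecule) in 10999 cells, and the HHIPCKO library holds 52338969 UMIs in 12350 cells. After filters on genes and mitochondrial UMIs, 10917 control and 12115 HHIPCKO cells were kept. Cells were clustered with the 10 members held out, and clusters were named "-like" from other marker genes. Levels (CPM) are the UMIs of a gene, pooled within each class of each library, per 1000000 UMIs pooled there, and ratios are HHIPCKO over control on the log2 scale. Intervals in parentheses are 95% intervals, exact Poisson for levels and exact binomial for ratios and shares, and such an interval takes in the error of counting alone and says nothing of variation among mice. Where 0 were counted, the limit given is instead the value that 3 counts would have. A gene is said to have risen or fallen where the ratio was at least 1.5-fold, its interval left out 0 and at least 50 UMIs were counted over both libraries.

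The labels were checked on the deleted gene. *Hhip* stood at 723 CPM in the fibroblast-like cells of the control and 167 CPM in those of HHIPCKO, which gives −2.12 (−2.18 to −2.05) as log2 ratio. It was rare in AT2-like cells, with 59 and 24 UMIs, a ratio of −1.46 (−2.21 to −0.75). In ciliated-like cells it had 71 and 9 UMIs, a ratio of −2.17 (−3.36 to −1.17). In mesothelial-like cells it stood at 286 and 80.3 CPM, a ratio of −1.83 (−2.23 to −1.45). It was thus lower in HHIPCKO in these classes too, and where this RNA came from was not tested. The library labelled HHIPCKO thus had the lower *Hhip*. The mice also differ in sex-linked genes. *Xist* was found in 0.335% of control and 45.6% of HHIPCKO AT2-like cells, and *Ddx3y* had 255 UMIs in the control and 0 in the HHIPCKO AT2-like cells, so sex and deletion cannot be told apart. The libraries share 193 cell barcodes.

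Epithelial cells numbered 3270 in control and 2889 in HHIPCKO, with median depths of 4803 and 5717 UMIs. Of these, 2982 and 2756 were AT2-like, 242 and 119 ciliated-like and 46 and 14 club-like. No cluster was named AT1-like by its scores, so the AT1 label of the 7 members could not be checked on a cluster of its own. The cluster led by *Anxa5* and *Krt7* (e13) had the highest AT1 score of the named epithelial clusters, 0.53, beside an AT2 score of 3.154 that gave it its name. Its leading genes, ranked against the other cells clustered as epithelial, include *Areg*, *Cldn18*, *Clic3* and *Ndnf* and no surfactant gene. Another AT2-like cluster (e16), with an AT2 score of 3.052, has no surfactant gene among its leading genes either. The leading genes alone thus do not decide the name. Ratios without this cluster are shown as well. Of 12 other AT1 genes used for naming, 7 were detected in at least 10% of AT2-like cells, while some of the others were close to 0. *Spock2* stood at 1.22 and 1.21 CPM and *Cyp2b10* at 0.338 and 0.724 CPM in control and HHIPCKO AT2-like cells. The 12 summed to 680.4 and 674 CPM, led by the membrane protein gene *Emp2* at 354 and 314 CPM. Within the epithelium, the values below therefore describe AT1 and transitional genes in cells of AT2-like and airway clusters. A few cells of e13, described below, have markers that go against the name AT2-like and are still counted in that class. Clusters with markers of another lineage were left out as mixed, by thresholds set after the clusters were seen. They hold 888 control (8.13%) and 1128 HHIPCKO cells (9.31%). A shallow epithelial cluster with a median of 1015 UMIs, 339 and 201 cells (3.11% and 1.66%), was left out as well.

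The AT2-like clusters are dominated by 1 library each. Cluster e0 holds 1436 control and 71 HHIPCKO cells, cluster e2 holds 1349 and 81, and the proliferating cluster e16 holds 72 and 6. Cluster e1, led by *Lcn2*, *Rgcc* and *Chil1*, holds 35 and 1456 cells, and cluster e3, with *Fos*, *Atf3* and *Jun* among its leading genes, holds 17 and 1128. Cluster e13 holds 73 and 14. Library and cell state cannot be told apart in them. In AT2-like cells as a whole the stress-induced *Fos* stood at 943 and 1569 CPM and *Atf3* at 291 and 650.3 CPM, and the secreted defence protein gene *Lcn2* at 965 and 2131 CPM. Their part in the values of the members was not tested.

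In AT2-like cells 3 of the 10 members passed the fold. *Ager* and *Pdpn* were lower in HHIPCKO, the latter at background level, and *Cldn4* was higher, where 9.49% of 11027 genes with enough UMIs passed in either direction, 4.76% downward and 4.73% upward. In all epithelial cells 2 of 10 passed, *Ager* and *Pdpn*, both lower, against 13.0% of 11773 genes in either direction and 9.48% downward, with 3.51% upward. The *Ager* ratio there, −0.59, lies close to 1.5-fold and passed it under 10 of 13 other settings. The median log2 ratio of the 10 members was −0.32 in AT2-like cells, where that of all genes was −0.01, and −0.34 in epithelial cells, where that of all genes was −0.06. All 7 AT1 members had a ratio below 0 in both sets of cells, although 5 of them stayed inside the fold.

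**Figure D1:**
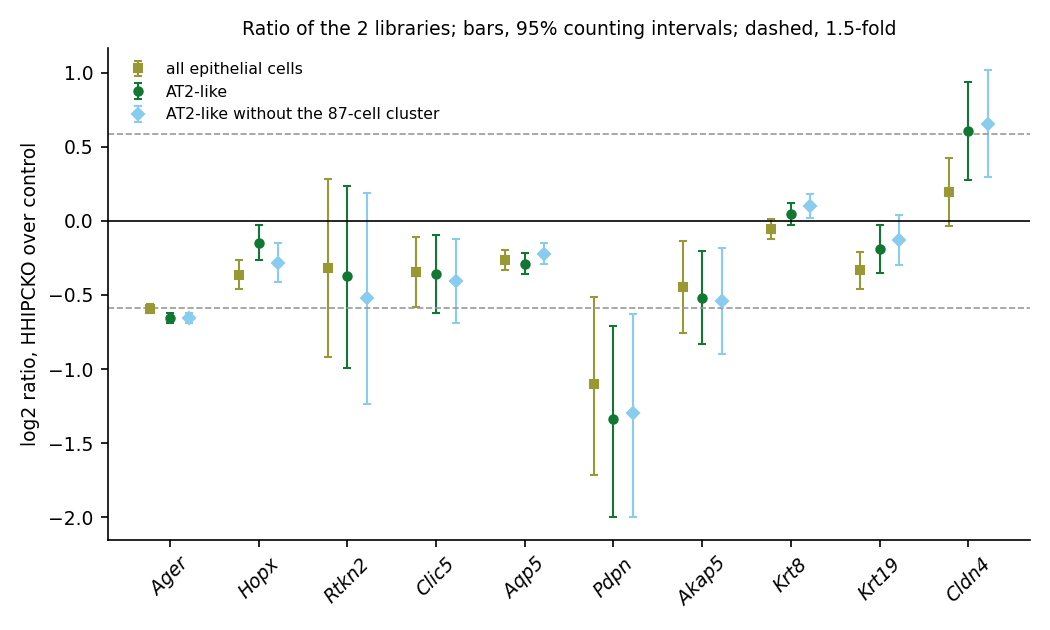
Log2 ratio of HHIPCKO over control for each member, in all epithelial cells (squares), AT2-like cells (circles) and AT2-like cells without the cluster of 87 cells led by *Anxa5* and *Krt7* (diamonds), with 95% counting intervals and dashed lines at 1.5-fold. *Ager* lies at −0.65 and *Pdpn* at −1.34 in AT2-like cells, *Cldn4* lies at 0.61, and *Krt8* lies at 0.05.

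*Ager* (ENSMUSG00000015452; chromosome 17, 34597862 to 34600936, plus strand, GRCm38) encodes the receptor for advanced glycation end products, which sits on the basal side of AT1 cells. In AT2-like cells it stood at 1166 CPM (1149 to 1184) in control and 742 CPM (729 to 755) in HHIPCKO. The control level was the higher, with a log2 ratio of −0.65 (−0.69 to −0.62). *Ager* had a UMI in 97.1% of control and 94.6% of HHIPCKO AT2-like cells, and, after each cell was thinned to 2000 UMIs, in 87.1% (85.8% to 88.3%) and 73.2% (71.5% to 74.9%). Thinning left out 116 control and 43 HHIPCKO AT2-like cells with fewer UMIs, and median depths were 4825 and 5738 UMIs. Pericyte-like cells, which should lack the gene and have median depths of 1714 and 1813 UMIs, gave 3.22% and 2.05%. With 269 and 440 of them too shallow for thinning, the others gave 4.22% and 2.06%. In red cell-like cells, at median depths of 4988.5 and 5299 UMIs, it was 15.4% and 20.4%. *Ager* was thus found in nearly every AT2-like cell of both libraries, far above the share that free RNA gave.

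*Ager* was also lower in HHIPCKO in each of the 4 largest AT2-like clusters, beyond counting error in 3 of them. Cluster e13 went the other way, and in e16, with 6 HHIPCKO cells, the log2 ratio was −0.41 (−0.96 to 0.09). In e0 the level was 1158 CPM in control and 913 CPM in HHIPCKO cells, a log2 ratio of −0.34 (−0.51 to −0.18). In e2 it was 1159.85 and 884 CPM, a ratio of −0.39 (−0.57 to −0.22). In e1 it was 1047 and 658 CPM, a ratio of −0.67 (−0.89 to −0.45), and in e3 906 and 811 CPM, a ratio of −0.16 (−0.47 to 0.17). HHIPCKO was the lower beyond counting error in e0, e2 and e1 but not in e3, and each comparison has few cells, 81 or fewer, of 1 library, and the ratio passed 1.5-fold in e1 only. In e13 *Ager* stood at 1608 CPM in 73 control and 3083 CPM in 14 HHIPCKO cells, a ratio of 0.94 (0.72 to 1.15), and 5 of the 14 cells held 82.9% of those HHIPCKO UMIs.

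*Hopx* (ENSMUSG00000059325; chromosome 5, 77086988 to 77115121, minus strand) encodes a homeodomain protein that does not bind DNA itself and marks AT1 cells. Its levels in AT2-like cells were 74.9 CPM (70.5 to 79.4) in control and 67.7 CPM (63.8 to 71.7) in HHIPCKO, close to each other, with a log2 ratio of −0.15 (−0.27 to −0.03). It had a UMI in 23.7% and 23.2% of cells, and in 11.9% and 9.99% after thinning. Pericyte-like cells gave 3.68% and 2.19% before and 4.82% and 2.41% after thinning, and red cell-like cells 2.80% and 7.85% before it. Few cells weighed on this gene. Without cluster e13 the levels were 67.2 and 55.2 CPM, and the ratio moved to −0.28 (−0.42 to −0.15).

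*Aqp5* (ENSMUSG00000044217; chromosome 15, 99590782 to 99594829, plus strand) encodes a water channel of the apical membrane. It stood at 243 CPM (235 to 251) in control and 199 CPM (192 to 206) in HHIPCKO AT2-like cells, somewhat higher in control, at a log2 ratio of −0.29 (−0.36 to −0.22). Unthinned shares of cells were 49.4% and 49.9%, while thinned shares were 30.8% and 27.3% and follow the CPM. The clusters did not all share this direction, at −0.09 (−0.44 to 0.24) in e0, 0.50 (0.18 to 0.80) in e2, 0.64 (−0.02 to 1.40) in e1 and −0.72 (−1.21 to −0.19) in e3. *Clic5* (ENSMUSG00000023959; chromosome 17, 44188584 to 44280172, plus strand) encodes a chloride intracellular channel protein tied to the actin cortex. Its levels were 17.4 CPM (15.4 to 19.7) in control and 13.6 CPM (11.9 to 15.5) in HHIPCKO, a log2 ratio of −0.36 (−0.62 to −0.10). Thinned shares for *Clic5* were 3.38% and 2.51%, against 7.78% and 6.75% unthinned. In pericyte-like cells the shares of both genes were under 1%, at 0.690% and 0.821% for *Aqp5* and at 0 of 435 control cells, a limit of 0.690%, and 0.274% of HHIPCKO cells for *Clic5*. Red cell-like cells, closer in depth to AT2-like cells, gave 7.48% and 7.33% for *Aqp5*, or 2.45% and 3.39% after thinning, and 0.935% and 1.05% for *Clic5*.

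*Pdpn* (ENSMUSG00000028583; chromosome 4, 143267431 to 143299564, minus strand) encodes podoplanin, a mucin-like glycoprotein of the AT1 apical surface and of mesothelium. It was rare in AT2-like cells, with 70 UMIs or 4.73 CPM (3.68 to 5.97) in control and 31 UMIs or 1.87 CPM (1.27 to 2.66) in HHIPCKO. The log2 ratio was −1.34 (−1.996 to −0.71). Its share of cells was 2.05% and 1.05%, and 1.01% and 0.369% after thinning, while red cell-like cells had 0.935% and 1.05% unthinned and pericyte-like cells 0.230% and 0.137%. In red cell-like cells the level was 1.70 CPM (0.206 to 6.13) and 3.61 CPM (0.983 to 9.24), on 2 and 4 UMIs. These intervals take in the AT2-like values, so the ratio compares levels not told apart from background, and no fall in expression is read from it. Of all *Pdpn* UMIs in kept cells, only 16.2% in control and 11.0% in HHIPCKO came from AT2-like cells.

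*Akap5* (ENSMUSG00000021057; chromosome 12, 76324891 to 76334153, plus strand) encodes an anchor for protein kinase A at membranes. It stood at 13.2 CPM (11.4 to 15.2) in control and 9.23 CPM (7.83 to 10.8) in HHIPCKO AT2-like cells, lower in HHIPCKO but inside the fold, at a log2 ratio of −0.52 (−0.83 to −0.21). *Rtkn2* (ENSMUSG00000037846; chromosome 10, 67979570 to 68059740, plus strand) is used as a marker of AT1 cells. With 51 and 44 UMIs, or 3.44 and 2.66 CPM, its log2 ratio of −0.37 (−0.99 to 0.24) was not detectable as a difference at this depth. It passed 1.5-fold under 2 of 13 other settings and moved to −2.92 where the pericyte-like level was subtracted, a level that rests on 0 control and 3 HHIPCKO UMIs. Shares of cells were 4.90% and 4.10% for *Akap5* and 1.41% and 1.34% for *Rtkn2*, and 2.06% and 1.58% against 0.488% and 0.332% after thinning. In pericyte-like cells they were 0 of 435, a limit of 0.690%, and 0.274% for *Akap5*, and 0 of 435 and 0.410% for *Rtkn2*. In red cell-like cells they were 1.40% and 1.05% for *Akap5*, and 0.467% and 0 of 191, a limit of 1.57%, for *Rtkn2*.

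Among the transitional members, *Krt8* (ENSMUSG00000049382; chromosome 15, 101996698 to 102004482, minus strand) encodes the type II keratin of simple epithelia. Its level was the same within counting error in both libraries, 179.6 CPM (173 to 187) in control and 186 CPM (179 to 192) in HHIPCKO AT2-like cells, at a log2 ratio of 0.05 (−0.03 to 0.12). Its share of cells was 47.8% in control and 58.0% in HHIPCKO as counted, but 26.6% (24.98% to 28.2%) and 27.5% (25.8% to 29.2%) once cells were thinned, so the gap in shares went with depth. Pericyte-like shares were 0.690% and 0.547%, and red cell-like shares 7.48% and 13.1%.

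*Krt19* (ENSMUSG00000020911; chromosome 11, 100140810 to 100148665, minus strand) encodes a small type I keratin of ducts and airways. It stood at 43.5 CPM (40.2 to 47.0) in control and 38.1 CPM (35.2 to 41.2) in HHIPCKO, a little lower in HHIPCKO, at a log2 ratio of −0.19 (−0.35 to −0.03). *Cldn4* (ENSMUSG00000047501; chromosome 5, 134945119 to 134946934, minus strand) encodes a sealing claudin of tight junctions. It was scarce, with 124 UMIs or 8.37 CPM (6.96 to 9.98) in control and 211 UMIs or 12.7 CPM (11.1 to 14.6) in HHIPCKO, and it rose at a log2 ratio of 0.61 (0.28 to 0.94). Thinned shares were 7.22% and 7.34% for *Krt19*, against 17.3% and 18.0% unthinned. For *Cldn4* they were 1.15% (0.794% to 1.61%) and 2.21% (1.69% to 2.84%), against 3.25% and 6.17% unthinned. In pericyte-like cells *Cldn4* was at 0.230% and 0 of 731 cells, a limit of 0.410%, and *Krt19* at 0.690% and 0.137%. Red cell-like cells gave 0.467% and 2.09% for *Cldn4* and 1.40% and 5.24% for *Krt19*. *Cldn4* was thus higher in HHIPCKO by level and by thinned share, though the ratio lies close to 1.5-fold and passed it under 6 of 13 other settings in which a ratio could be computed.

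Summed, the 7 AT1 members took 1523 CPM in control and 1036 CPM in HHIPCKO AT2-like cells, a log2 ratio of −0.56 (−0.58 to −0.53), just inside 1.5-fold. Most of this sum is *Ager*. Without it the sums were 357 and 294 CPM, at a ratio of −0.28 (−0.34 to −0.22). The 3 transitional members summed to 231 and 236 CPM, at a ratio of 0.03 (−0.04 to 0.10). In all epithelial cells the AT1 sum was 1478 and 1037 CPM, a ratio of −0.51 (−0.54 to −0.48), and the transitional sum 319 and 298 CPM, a ratio of −0.10 (−0.15 to −0.04). Ciliated-like cells were 242 of 3270 control and 119 of 2889 HHIPCKO epithelial cells. With both libraries pooled, their transitional sum was 1645 CPM, beside 234 CPM in AT2-like cells. The part of this make-up in any value given for all epithelial cells was not tested. AT1 members as a sum were lower in HHIPCKO, and the transitional sum hardly differed. Most of the transitional sum is *Krt8*, with 5734 of its 7344 UMIs in AT2-like cells of both libraries. Within it *Cldn4* rose and *Krt19* was a little lower in AT2-like cells, so the sum does not stand for each member.

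**Figure D2:**
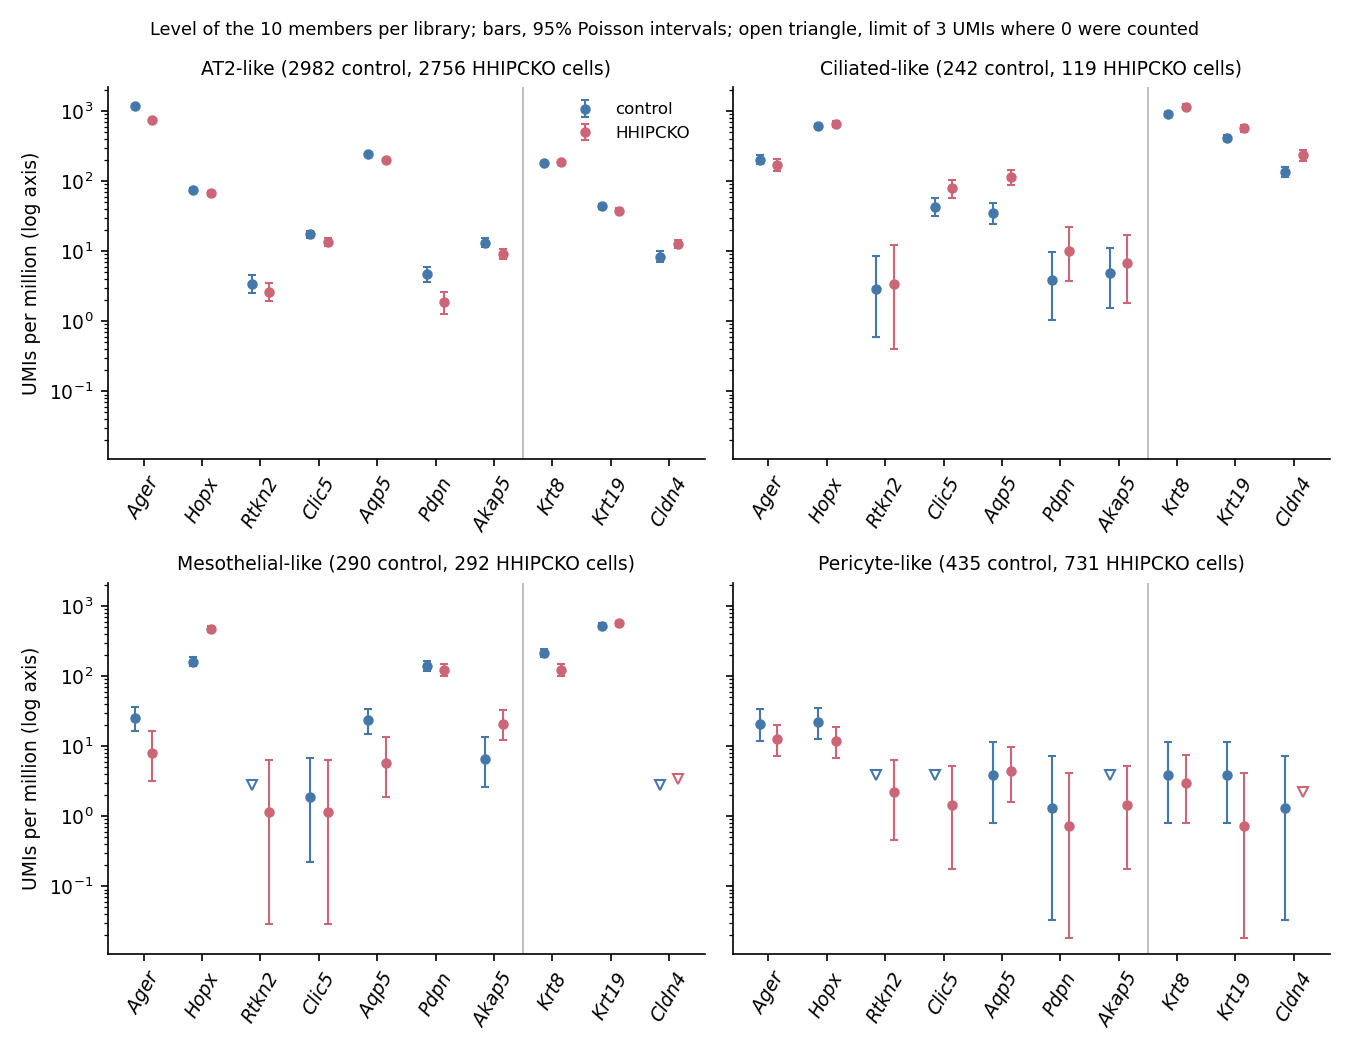
Level of each member in CPM (log axis) in control and HHIPCKO AT2-like, ciliated-like, mesothelial-like and pericyte-like cells, with 95% Poisson intervals and open triangles at the limit of 3 UMIs where 0 were counted; the grey line parts AT1 from transitional members. *Hopx* lies at 161 CPM in control and 467 CPM in HHIPCKO mesothelial-like cells, and at 613 and 654 CPM in ciliated-like cells.

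Cluster e13 held the cells with the most of these genes among the AT2-like. In its 73 control cells *Hopx* stood at 326 CPM, *Krt8* at 532 CPM and *Aqp5* at 746 CPM, each above the level of control AT2-like cells as a whole. *Akap5* stood at 103 CPM and *Clic5* at 79.8 CPM there. The 14 HHIPCKO cells had 2698 CPM for *Hopx*, 1156 CPM for *Krt8* and 989 CPM for *Aqp5*, but a few of them carry these sums. The 5 cells with the most *Hopx* held 93.3% of the *Hopx* UMIs of the HHIPCKO cells and 40.6% of those of the control cells, so ratios between libraries in this cluster rest on few cells.

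**Figure D3:**
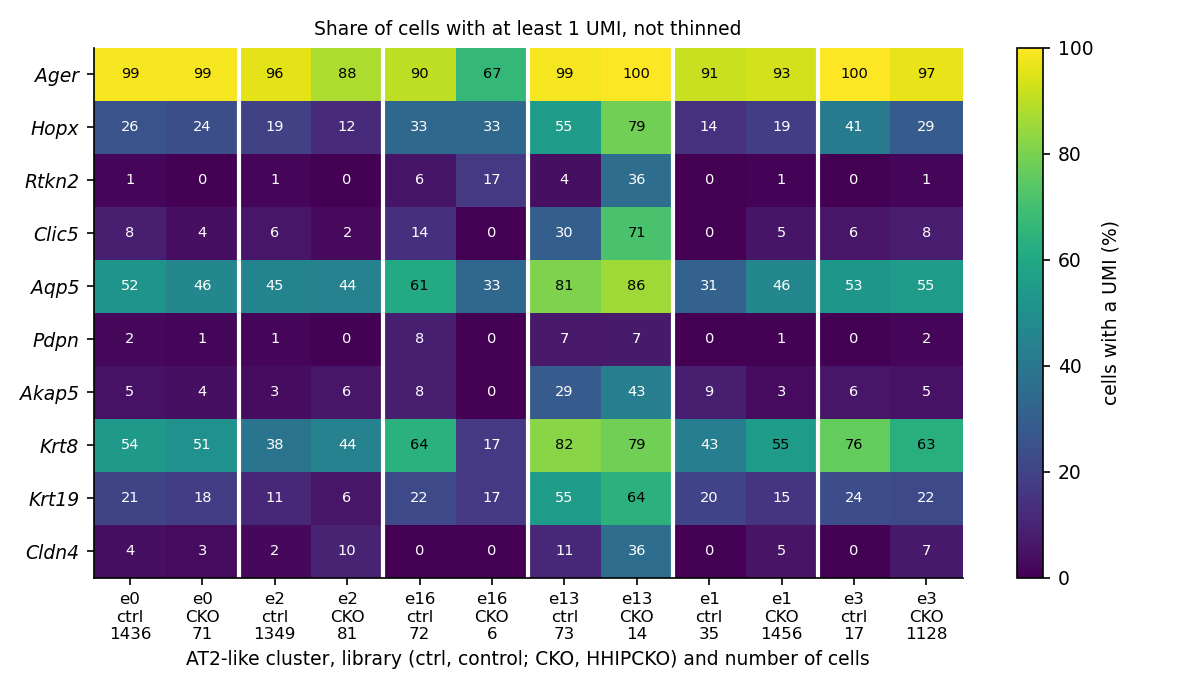
Share of cells with at least 1 UMI of each member, not thinned, in the 6 AT2-like clusters split by library, with the number of cells under each column. *Hopx* was found in 54.8% of the 73 control and 78.6% of the 14 HHIPCKO cells of cluster e13, and in 25.7% of the 1436 control cells of cluster e0.

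The cells of AT2-like clusters with at least 10 *Hopx* UMIs, a limit chosen after the values were seen, were 2 in control and 4 in HHIPCKO. The HHIPCKO cells had 75, 72, 27 and 13 *Hopx* UMIs with 59, 60, 45 and 17 *Ager* UMIs, at depths of 2832, 9648, 3714 and 986 UMIs. They held from 6 to 9 of the 10 members each, together with 16, 27, 20 and 10 UMIs of *Emp2*, and all lay in cluster e13. *Sftpc*, the surfactant protein C gene, was 0.177%, 20.5%, 0.0808% and 0.811% of their UMIs. In 3 of them, with 5, 3 and 8 *Sftpc* UMIs and 0 of the AT2 gene *Lamp3*, these markers go against the name AT2-like, which was given to the cluster as a whole. In control 1 such cell, in e13, had 28 *Hopx*, 35 *Ager*, 6 *Rtkn2* and 6 *Clic5* UMIs with 6.34% *Sftpc*, and the other, in e0, had 10 *Hopx* UMIs with 35.0% *Sftpc*. These 4 HHIPCKO cells held 187 of the 1121 *Hopx* UMIs of their library's AT2-like cells. Of these 6 cells, all 4 of HHIPCKO and 1 of control had less *Sftpc* than AT2-like cells as a whole, too few to compare.

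Without the 5 highest cells of each library, the log2 ratio in AT2-like cells was −0.67 for *Ager*, −0.34 (−0.47 to −0.21) for *Hopx* and −0.29 for *Aqp5*. It was −0.68 (−1.03 to −0.33) for *Akap5*, which then passed 1.5-fold. For *Cldn4* it was 0.71 (0.35 to 1.08) and for *Pdpn* −1.43 (−2.19 to −0.73). The 5 highest cells held 5.59% of the *Hopx* UMIs in control and 17.5% in HHIPCKO, and 14.8% and 23.5% of the *Akap5* UMIs. The shares were 17.1% and 22.6% for *Pdpn* and 20.2% and 14.2% for *Cldn4*. Without these cells the ratios of *Ager*, *Pdpn* and *Cldn4* stayed past 1.5-fold.

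Cell by cell, most AT2-like cells held few members. Leaving out *Ager*, thinned AT2-like cells had a mean of 0.846 of the 9 other members in control and 0.791 in HHIPCKO, and none in 40.4% and 43.8% of cells. At least 3 were found in 3.98% (3.29% to 4.76%) of control and 3.83% (3.14% to 4.63%) of HHIPCKO cells. The libraries were alike in this share. In cluster e13 it was 25.7% of 70 control cells and 58.3% of 12 HHIPCKO cells, in ciliated-like cells 44.1% of 177 and 44.0% of 91, and in pericyte-like cells 0 of 166 and 0 of 291.

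Of the 45 pairs of members, 3 in control and 8 in HHIPCKO were found together in thinned AT2-like cells more than apart, with 95% intervals that did not overlap whichever member came first. The 3 of control were among the 8 of HHIPCKO. Pairs of other genes were not counted in this way, so whether the members stand out is not known. Cells of cluster e13 were included. *Hopx* was in 37.3% (25.04% to 50.9%) of 59 control cells with *Akap5* and in 11.3% (10.2% to 12.6%) of those without. In HHIPCKO it was in 27.9% (15.3% to 43.7%) of 43 cells with *Akap5* and 9.70% (8.60% to 10.9%) of those without. *Krt8* was in 36.2% (29.7% to 43.2%) of 207 control cells with *Krt19* and in 25.8% (24.2% to 27.5%) of those without, and in HHIPCKO in 36.7% (30.0% to 43.8%) of 199 and 26.7% (25.01% to 28.5%). *Hopx* was in 17.9% (12.9% to 23.8%) of the same control cells with *Krt19* and 11.4% (10.2% to 12.7%) of those without, and in HHIPCKO in 17.6% (12.6% to 23.6%) and 9.39% (8.28% to 10.6%). These 3 pairs thus went together in both libraries. The other 5, in HHIPCKO alone, were *Aqp5* with *Hopx*, *Krt19* or *Cldn4*, *Krt19* with *Cldn4*, and *Rtkn2* with *Akap5*, and whether the libraries differ in them was not tested. The last of these pairs rests on 9 cells with *Rtkn2*, 22.2% of them with *Akap5*. *Krt8* was in 26.8% of control cells with *Hopx* and 26.6% of those without, and in HHIPCKO in 31.4% (25.9% to 37.3%) of 271 and 27.03% (25.3% to 28.8%), with intervals that overlap.

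In ciliated-like cells, which line the airways, 3 of the 7 members with enough UMIs passed the fold, all higher in HHIPCKO, where 7.31% of 5760 genes passed in either direction, 4.10% upward and 3.21% downward. *Cldn4* stood at 137 CPM (115 to 161) in control and 234 CPM (197 to 276) in HHIPCKO, a log2 ratio of 0.77 (0.43 to 1.12). *Clic5* stood at 43.3 and 79.1 CPM, a ratio of 0.87 (0.25 to 1.49). *Aqp5* stood at 34.7 and 114 CPM, a ratio of 1.72 (1.12 to 2.35), but with few positive cells, and the control level is that of red cell-like cells, at 36.5 and 36.1 CPM. Of the 68 HHIPCKO *Aqp5* UMIs 33 came from 1 cell, and without the highest cell of each library the ratio was 1.28 (0.50 to 2.09). *Cldn4* too had 33 of its 139 HHIPCKO UMIs in 1 cell, and its ratio without the highest cells was 0.53 (0.14 to 0.91), inside the fold. The stress-induced *Fos*, at 754 and 1314 CPM, and *Atf3*, at 261 and 717 CPM, were also higher in HHIPCKO ciliated-like cells. Their part in the values of the members was not tested there.

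The keratins and *Hopx* were abundant in ciliated-like cells of both libraries. *Krt8* stood at 915 and 1156 CPM, *Krt19* at 414 and 569 CPM and *Hopx* at 613 and 654 CPM in control and HHIPCKO, with log2 ratios of 0.34, 0.46 and 0.09. Thinned shares were 75.1% and 76.9% for *Krt8*, 50.8% and 58.2% for *Krt19* and 63.8% and 60.4% for *Hopx*, with 65 control and 28 HHIPCKO cells left out, and unthinned shares were 79.8% and 81.5%, 62.0% and 72.3%, and 70.2% and 71.4%. These genes were thus general to ciliated-like cells and differed little between libraries. The ciliated-like cluster also had a club score of 1.29 beside its ciliated score of 1.553, with *Cyp2f2* among its leading genes. The 46 control and 14 HHIPCKO club-like cells, secretory cells of the airway, had *Aqp5* at 454 CPM (391 to 524) and 159 CPM (79.3 to 284), which rests on 11 UMIs in HHIPCKO.

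Outside the epithelium, *Hopx* rose in mesothelial-like cells, the cells of the pleural lining. It stood at 161 CPM (138 to 187) in 290 control and 467 CPM (422 to 514) in 292 HHIPCKO cells, a log2 ratio of 1.53 (1.27 to 1.80), and thinned shares were 27.1% (21.3% to 33.5%) and 49.7% (42.0% to 57.4%), against 37.6% and 51.4% unthinned at median depths of 3524.5 and 2417 UMIs. HHIPCKO was the higher by both measures. The stress-induced *Fos* was also higher in these cells, at 648 and 1522 CPM, as was *Atf3*, at 272 and 545 CPM, and their part in the *Hopx* values was not tested. For *Hopx* without the 5 highest cells of each library the ratio was 1.58. *Krt8* fell there from 217 to 124 CPM, a ratio of −0.81 (−1.15 to −0.47), while *Ager* was at 25.1 and 8.03 CPM in the same cells. Of the 4 members with enough UMIs there, these 2 passed the fold, beside 12.4% of 5960 genes in either direction, 7.23% upward and 5.13% downward. *Pdpn*, at 139.7 and 123 CPM, and *Krt19*, at 524 and 569 CPM, were high in mesothelial-like cells of both libraries and stayed inside the fold. Mesothelial-like cells gave 34.7% of all control and 38.1% of all HHIPCKO *Pdpn* UMIs.

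In fibroblast-like cells *Hopx* stood at 15.2 CPM in control and 42.8 CPM in HHIPCKO, a log2 ratio of 1.496 (1.26 to 1.74). Of its 175 and 710 UMIs, 78 and 509 lay in the cluster led by *Mfap4*, *Fn1* and *Macf1*, which holds 381 control and 1395 HHIPCKO cells, at 58.3 and 99.2 CPM, a ratio of 0.77 (0.42 to 1.13). *Hopx* rose in both sets of cells, and it rose less within that cluster than over all fibroblast-like cells, whose clusters the libraries fill unequally. *Ager*, *Aqp5* and *Pdpn* were lower in HHIPCKO fibroblast-like cells, at ratios of −0.80, −2.17 and −1.10. Of these, *Ager* was found in 3.67% and 2.23% of cells, near its pericyte-like share, and is read as background. *Hopx* was found in 3.78% and 9.49% of all fibroblast-like cells, against 3.68% and 2.19% of pericyte-like cells, and in 14.96% and 22.9% of the cells of that cluster. Of the *Aqp5* UMIs, 86 of 106 in control and 14 of 34 in HHIPCKO lay in the cluster led by *Col1a1*, *Gsn* and *Col1a2*, with 816 and 874 cells, at 26.8 and 4.36 CPM, a ratio of −2.62 (−3.55 to −1.80). Both levels are under the 36.5 and 36.1 CPM of red cell-like cells. In pericyte-like cells *Aqp5* stood at 3.89 and 4.40 CPM, below the control level of the *Col1a1*-led cluster. *Pdpn* had 113 of its 130 and 75 of its 87 UMIs in the same cluster, at 35.2 and 23.3 CPM, a ratio of −0.59 (−1.03 to −0.16). Of the 5 members with enough UMIs in fibroblast-like cells, 4 passed the fold, beside 14.3% of 12170 genes in either direction, 7.20% upward and 7.14% downward. Endothelial-like cells, few because the sort left them out, had *Hopx* at 323 and 371 CPM and *Clic5* at 161 and 196 CPM, alike within counting error.

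With the UMIs of both libraries pooled, the order of levels differed by member among 10 named classes. *Ager* was highest in AT2-like cells at 942 CPM, followed by club-like cells at 518 CPM, although in HHIPCKO alone the 742 CPM of AT2-like cells lies within the interval of the 14 club-like cells, 474 to 870.0 CPM. *Aqp5* was highest in club-like cells at 411 CPM and then in AT2-like cells at 220.0 CPM, but 185 of the 196 club-like UMIs came from control, and in HHIPCKO the 159 CPM of club-like cells, on 11 UMIs, was below the 199 CPM of AT2-like cells. *Krt8* and *Cldn4* were highest in ciliated-like cells, at 1003 and 172 CPM, before club-like cells at 241 and 67.1 CPM and AT2-like cells at 183 and 10.7 CPM. Mesothelial-like cells had *Krt8* at 175 CPM, which overlaps the AT2-like interval, with 217 CPM above AT2-like cells in control and 124 CPM below them in HHIPCKO. *Krt19* was highest in mesothelial-like cells at 544 CPM, then in ciliated-like cells at 470.2 CPM, an order seen in control only, since both classes stood at 569 CPM in HHIPCKO. *Hopx* was highest in ciliated-like cells at 628 CPM, while its levels in endothelial-like, mesothelial-like and club-like cells, 341, 298 and 273 CPM, overlapped from each neighbour to the next when pooled. By library, mesothelial-like cells came below both others in control, at 161 CPM beside 323 CPM in endothelial-like and 272 CPM in club-like cells, and above both in HHIPCKO, at 467 CPM beside 371 and 275 CPM. *Clic5* was highest in endothelial-like cells at 174 CPM and *Pdpn* in mesothelial-like cells at 132 CPM. *Akap5* had neighbouring intervals that overlapped throughout, from 12.8 CPM in mesothelial-like to 0.937 CPM in pericyte-like cells, and so did *Rtkn2*, whose highest level was 3.87 CPM on 2 UMIs, so no highest class is given for these 2 members.

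Wider sets of genes were read in the same way. Of 20 other AT1 genes, 16 had enough UMIs in AT2-like cells, 0 rose and 3 fell, with a median log2 ratio of 0.03 beside −0.01 for all genes, of which 4.73% rose and 4.76% fell. Those that fell were the lipid-binding protein gene *Sec14l3*, at 117 and 70.6 CPM, the caveolar coat gene *Cav1*, at 6.55 and 3.38 CPM, and the sodium channel gene *Scnn1g*, at 4.66 and 2.60 CPM. Their ratios were −0.72, −0.95 and −0.84. *Sec14l3* is also the first leading gene of the ciliated-like cluster, which holds 242 control and 119 HHIPCKO cells. The part of airway RNA in its fall was not tested. In all epithelial cells 4 of 19 fell, with *Igfbp2* besides, at 5.97 and 2.15 CPM, where 9.48% of all genes fell, and the median was −0.24 beside −0.06 for all genes. Of the 12 AT1 genes used for naming, 9 had enough UMIs in AT2-like cells, 0 rose and 1 fell, at a median of 0.11, and in all epithelial cells 0 of 12 rose and 2 fell, at −0.20. Whether the AT1 members differ from other AT1 genes was not tested.

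Of 20 other transitional genes, 17 had enough UMIs in AT2-like cells, 2 rose and 3 fell, beside 4.73% and 4.76% of all genes, with a median of −0.01. The cell cycle inhibitor gene *Cdkn1a* rose from 72.2 to 198 CPM, a ratio of 1.45 (1.35 to 1.56), and the stress-responsive *Ndrg1* from 1.82 to 3.14 CPM, a ratio of 0.78 (0.09 to 1.51). The EGF receptor ligand gene *Areg* fell from 86.1 to 33.0 CPM, a ratio of −1.38 (−1.53 to −1.24). *Sfn*, the stratifin gene, fell from 32.7 to 21.2 CPM and *Ccn2*, a matricellular gene, from 8.37 to 4.77 CPM. *Krt18*, the keratin partner of *Krt8*, chosen after its values were seen, stood at 281 and 365 CPM, inside the fold at 0.37. In all epithelial cells 3 of 17 rose, with *Msln* besides at 2.46 and 4.70 CPM, and the same number fell, beside 3.51% and 9.48% of all genes, at a median of −0.22. *Cldn4* and *Cdkn1a* thus rose while *Areg* and *Sfn* fell, so genes of the transitional state did not move one way.

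Of 20 regulators of alveolar epithelial fate, 19 had enough UMIs in AT2-like cells, 0 rose and 3 fell, beside 4.73% and 4.76% of all genes, with a median of −0.03. The transcription factor genes *Sox4* and *Sox9* stood at 72.5 and 46.8 CPM and at 13.2 and 6.52 CPM, ratios of −0.63 and −1.01. The secreted ligand gene *Bmp4* stood at 37.4 and 21.5 CPM, a ratio of −0.80. In all epithelial cells 3 of 20 fell and 0 rose, beside 9.48% and 3.51% of all genes, at a median of −0.01. Of 12 AT2 genes, 0 rose and 0 fell in either set of cells, at medians of 0.06 and 0.12. *Sftpc* stood at 313239 and 275909 CPM in AT2-like cells and the surfactant protein A gene *Sftpa1* at 20186 and 26169 CPM, ratios of −0.18 and 0.37. The lysozyme gene *Lyz2* was at 19678 and 22789 CPM and the chemokine gene *Cxcl15* at 7252 and 6505 CPM, ratios of 0.21 and −0.16. These AT2 genes thus stayed inside the fold while *Ager* fell. Most of them were also used to name the AT2-like class and *Ager* was held out, so this contrast is no test of AT2 identity.

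Across 19 points, a class in a library with at least 20 cells each, the genes whose levels followed the AT1 sum most closely among 11763 were *Tmem30b*, *Wfdc2*, *Rbm47*, *Ccnd1* and *Epn3*, with Pearson r from 0.956 down to 0.937. For the transitional sum they were the keratin gene *Krt18*, at 0.983, then *Lsr*, *Nceh1*, *Lmo7* and *Shtn1*, at 0.974 to 0.946. *Ager* on its own, looked up after its values were seen, followed *Sftpb*, *Cxcl15* and *Sftpc*, at 0.991 to 0.989. These are descriptions over classes that share 2 libraries, and *Ager* ran with the AT2 genes in them. Free RNA of AT2-like cells would hold both *Ager* and these genes in the other classes, and its part in these r values was not tested.

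No other annotated gene overlaps 7 of the members. *Hopx*, *Rtkn2* and *Krt8* each share exon sequence with 1 gene on the opposite strand, *Hopxos*, *Gm16212* and *Gm36026*, and these had 3 and 3, 0 and 1, and 2 and 1 UMIs in control and HHIPCKO AT2-like cells, so they add little to the members' counts. The annotation also names 1 *Krt8* pseudogene, with which reads could be shared. Promoter sequences from RefSeq (GRCm38.p6) were found for 8 of the members, and *Rtkn2* and *Krt19* had no entry. The 250 bases before the RefSeq start of each were searched on both strands for GGAATG, the core bound by TEAD factors of the YAP pathway, for TGANTCA, bound by AP-1, for CACTTG, a core bound by NKX2-1, and for TATAAA. Of 32851 promoters in the table, these were held by 12.6%, 6.75%, 11.6% and 12.4%. Of the 8 members, *Cldn4* alone held any of them, with TGACTCA at 240 and at 158 bases before the start. The RefSeq start of *Aqp5*, of *Krt8* and of 1 of the 2 *Hopx* entries lies inside the gene as placed above, and so does part or all of the window. A match of these letters is no proof of a site, and a missing match says only that the letters are not in that window. Shown are the promoters of the 3 members that passed the fold in AT2-like cells, 5′ to 3′ on the strand of the gene, with AP-1 matches in capitals, for *Ager* at chr17:34597600-34597849 (plus strand), *Pdpn* at chr4:143299565-143299814 (minus strand) and *Cldn4* at chr5:134946935-134947184 (minus strand).
Ager: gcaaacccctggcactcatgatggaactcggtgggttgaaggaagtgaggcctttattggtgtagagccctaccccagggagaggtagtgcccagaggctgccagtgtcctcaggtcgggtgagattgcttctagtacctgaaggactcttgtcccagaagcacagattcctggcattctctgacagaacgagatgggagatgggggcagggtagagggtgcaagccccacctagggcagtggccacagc
Pdpn: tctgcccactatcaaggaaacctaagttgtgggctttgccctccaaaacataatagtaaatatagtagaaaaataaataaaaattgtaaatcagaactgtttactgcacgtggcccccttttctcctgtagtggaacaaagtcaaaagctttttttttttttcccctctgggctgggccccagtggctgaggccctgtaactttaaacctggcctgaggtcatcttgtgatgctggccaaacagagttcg
Cldn4: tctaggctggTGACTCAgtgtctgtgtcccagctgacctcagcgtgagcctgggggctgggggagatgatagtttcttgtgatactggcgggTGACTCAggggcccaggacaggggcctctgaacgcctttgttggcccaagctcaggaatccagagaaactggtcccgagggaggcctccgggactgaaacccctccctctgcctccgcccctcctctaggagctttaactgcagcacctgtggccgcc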

How the data were processed

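Per the file headers, the authors aligned reads to mm10 with CellRanger 6.1.0 (the submitters' notes give Cell Ranger 3.1.0) and deposited raw UMI counts per gene and cell. The labels name a 3′ kit and the series description a 5′ kit. Cells were kept with 200 to 6000 genes and mitochondrial UMIs of 10% or less, and no doublets were removed. Both libraries were clustered together without integration on 2000 variable genes, 30 components, 20 neighbours and Leiden resolution 1, and epithelial clusters were clustered again on their own. Names needed a score of 0.3 and 3 markers in 10% of cells. Epithelial clusters were left out as mixed at 0.4 for another lineage or 0.6 for red cells. Thresholds for names were chosen with the clusters in view and revised once. The members and lists were chosen with earlier results of these data known. The text names the members and, of each list, the genes past the fold or the 4 with the most UMIs. *Spock2* and *Cyp2b10* are named outside this rule, as examples of genes at low levels. The ratio, its interval and thinning were tried on simulated data. Of 16 other settings, 3 were chosen after seeing the data. Tools were Python 3.11.15 with igraph 0.11.9, leidenalg 0.10.2, scikit-learn 1.9.0, numpy 2.4.6, pandas 2.3.3, scipy 1.17.1 and matplotlib 3.10.9.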

Additional observations from a re-analysis of the deposited data

How the results depend on the processing

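The AT1 sum stayed below 0 under all 13 alternatives that give a ratio, from −0.53 to −0.48 in epithelial and −0.58 to −0.52 in AT2-like cells. With the mean over cells it was −0.48 and −0.52, and the transitional sum in epithelial cells was −0.03. With cells classed singly, without clusters, the transitional sum in AT2-like cells was −0.08. The cause of these moves was not tested. *Pdpn* passed the fold in both sets of cells under all 13, and *Ager* did so in AT2-like cells. In epithelial cells *Ager*, close to 1.5-fold, passed under 10, and the count of members past the fold was 1 with the stricter cell filter, with abundant genes left out of the total and with the mean over cells. With the pericyte-like level subtracted the counts were 4 in epithelial and 5 in AT2-like cells, and a fold of 2 left 1 in each. The interval used after subtraction was the earlier one shifted with the ratio, which leaves out the error of the level subtracted. The share of all genes past the fold is given for the main setting only, so these counts have no reference. *Cldn4* in AT2-like cells ranged from 0.33, with cells classed singly, to 0.85, and passed under 6 of 13. *Hopx* turned to 0.08 in AT2-like cells when the pericyte-like level was subtracted. Of 260 ratios of single members under alternatives, 251 lay within the reported interval, 3 moved up and 6 down, and 0 of those past the fold reversed. All 40 shares of single members in epithelial and AT2-like cells were lower after thinning. The alternatives with the shallow cluster counted, the cluster led by *Anxa5* and *Krt7* left out, or mixed clusters counted were chosen after seeing the data. No paired analysis was possible because each group has 1 library. With 1 mouse per group, sex, mouse and deletion cannot be told apart, and depth limits *Rtkn2* and *Pdpn* most.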
